A study of Mus musculus with 7 samples.

Results

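Transcripts of fibronectin (Fn1) and of 9 integrin subunits (Itga1, Itga5, Itga8, Itga9, Itga11, Itgav, Itgb1, Itgb3 and Itgb5) were followed in fibroblasts sorted from the growing mouse heart. The 10 genes were chosen by name out of the 54735 gene symbols in the count table. No threshold was set on their values, but earlier results of these data were known. All 10 passed the filter on low counts that left 17636 genes. The study used bulk RNA sequencing of cells that carried a green fluorescent reporter and had been collected by flow sorting. In all mice the reporter sat in the Rosa26 locus (R26eGFP) and was switched on after tamoxifen by MerCreMer (MCM), a recombinase expressed from a fibroblast gene. The 7 libraries formed 3 groups. Postn P7 comprised 2 libraries of PostnMCM;R26eGFP cells, traced through periostin expression, at 7 days of age. Tcf21 P30 comprised 3 libraries of Tcf21MCM;R26eGFP cells, traced through the transcription factor Tcf21, at 30 days. Tcf21 P7 comprised 2 libraries of Tcf21MCM;R26eGFP cells at 7 days. Tissue of males and females was pooled. The reporter marks cells whose driver gene was active when tamoxifen was given, and no source used here gives the date of that treatment.

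Fibronectin is a large secreted glycoprotein that cells assemble into fibrils, and it forms the early scaffold onto which collagen is deposited. Integrins are receptors made of 1 alpha and 1 beta subunit, and they link matrix outside the cell to the actin cytoskeleton inside it. The subunit encoded by Itga5 pairs with that of Itgb1 as the classical fibronectin receptor. The Itgav subunit pairs with those of Itgb1, Itgb3 or Itgb5 and binds the Arg-Gly-Asp (RGD) site of fibronectin, of vitronectin and of latent TGF-beta. Itga8 encodes another RGD-binding partner of Itgb1, Itga9 a partner of Itgb1 that binds tenascin-C and a spliced segment of fibronectin, and Itga1 and Itga11 the partners of Itgb1 that bind collagen.

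Among the alpha subunits of the 10 genes, Itga11 rose and Itga8 fell with age by the clearest margin. Their promoter windows in RefSeq (GRCm38.p6, 250 bases before to 50 after the annotated start) are shown because the levels of these genes moved apart between the ages. The Itga11 window is chr9:62677605-62677904 on the plus strand and the Itga8 window chr2:12301895-12302194 on the minus strand. Capitals mark the E-box letters CANNTG, the motif class that binds basic helix-loop-helix factors such as Tcf21.
Itga11: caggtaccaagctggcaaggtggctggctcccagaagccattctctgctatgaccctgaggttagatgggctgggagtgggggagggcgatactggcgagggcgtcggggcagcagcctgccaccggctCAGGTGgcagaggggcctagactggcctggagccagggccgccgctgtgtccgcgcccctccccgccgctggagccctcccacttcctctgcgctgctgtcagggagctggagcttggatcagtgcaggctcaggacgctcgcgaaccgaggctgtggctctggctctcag
Itga8: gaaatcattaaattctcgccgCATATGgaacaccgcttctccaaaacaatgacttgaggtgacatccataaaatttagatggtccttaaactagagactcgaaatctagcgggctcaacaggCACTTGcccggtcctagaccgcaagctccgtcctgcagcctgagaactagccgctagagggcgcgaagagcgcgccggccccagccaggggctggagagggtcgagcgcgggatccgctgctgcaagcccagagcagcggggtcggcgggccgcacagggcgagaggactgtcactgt
The Itga11 window held 1 match and the Itga8 window 2, none overlapping another, and 72.3% of all 32851 promoter windows of this length held at least 1. The letters GGGCGG (GC box, in 35.7% of windows), CAGACA (SMAD box, 21.0%), GGAATG (TEAD, 14.7%) and TGANTCA (AP-1, 7.81%) were in neither window on either strand. RefSeq windows were at hand for 8 of the 10 genes.

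The libraries held 15207835 to 18519528 counts. Levels are normalised CPM, counts scaled to the size of each library, and errors are SDs between replicate libraries. All 10 fibroblast markers, among them Pdgfra, Dcn and Col1a1, were detected in every library and summed to 30010 to 44950 CPM. Transcripts of other heart cells were present too. Endothelial markers summed to 3131 CPM in Tcf21 P30 replicate 1, to 1383 CPM in Postn P7 replicate 1 (called the endothelial-rich libraries hereafter) and to 868 to 1041 CPM in the other 5 libraries. The name is only a label, as other markers were also higher in both than in their replicates. Pericyte and smooth muscle markers summed to 2093 and 2721 CPM there, against 978 to 1985 CPM elsewhere. Cardiomyocyte markers summed to 771 and 1058 CPM there, 400 to 548 CPM in their replicates and 1028 and 926 CPM in Tcf21 P7. Their fibroblast sums were the lowest of each group, at 35390 and 30010 CPM. Macrophage markers summed to 240 and 291 CPM in Postn P7, 251 to 381 CPM in Tcf21 P30 and 907 and 919 CPM in Tcf21 P7. The nuclear RNAs Malat1, Neat1, Kcnq1ot1 and Meg3 summed to 1272 and 1494 CPM in Postn P7, 1580 to 1712 CPM in Tcf21 P30 and 372 and 379 CPM in Tcf21 P7, and the part of this shift in the results below was not tested. In bulk samples, fewer cells of a type and less RNA per cell cannot be told apart.

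**Figure D1:**
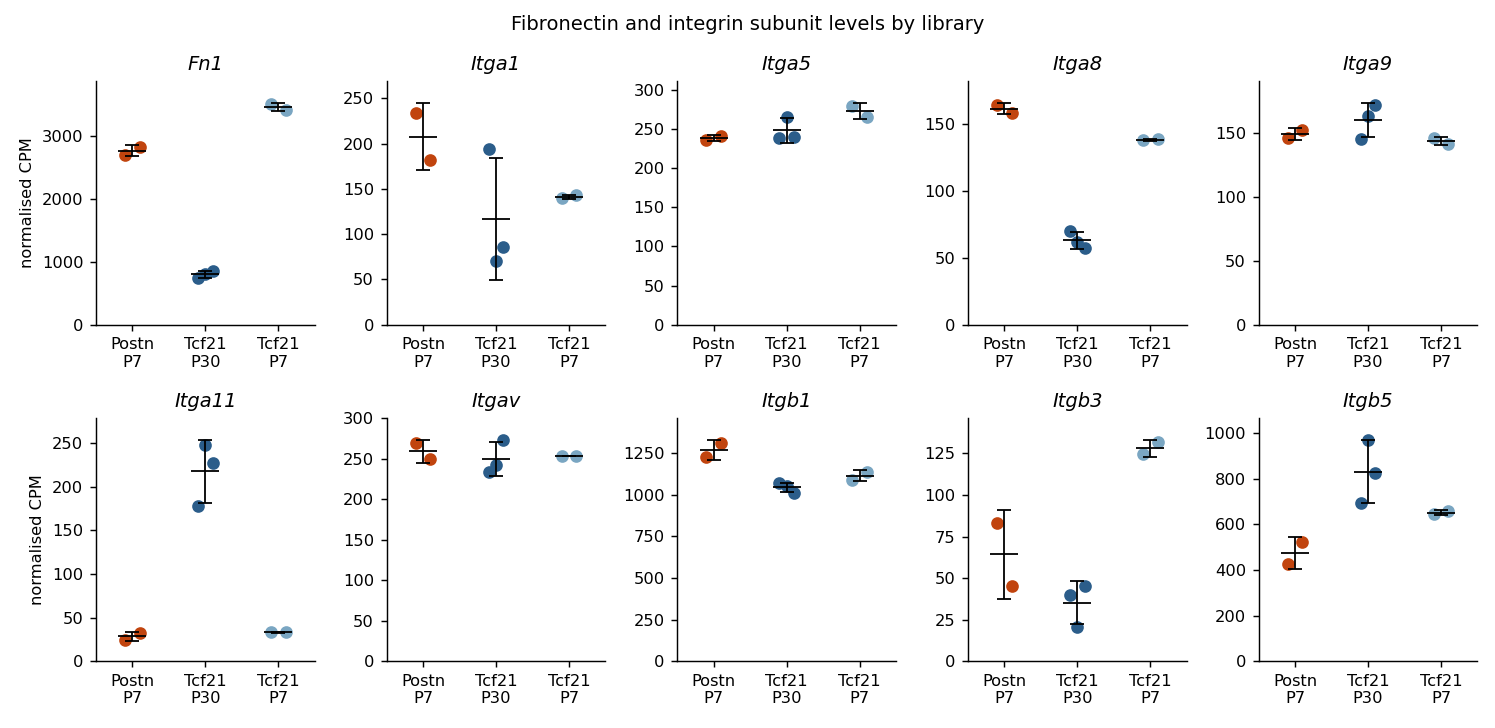
Normalised CPM (vertical axes, from 0) of Fn1 and the 9 integrin subunits in each library of Postn P7, Tcf21 P30 and Tcf21 P7; points are libraries, and bars the mean ± SD (n = 2, 3 and 2). Fn1 lies at 743 to 859 CPM in the Tcf21 P30 libraries and at 2708 CPM or more in all others, and Itga11 shows the opposite order.

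Between the ages of Tcf21-traced cells some of these genes were called and others were not. Fibronectin, Itga8 and Itgb3 transcripts fell in Tcf21 P30, and those of the collagen receptor subunit Itga11 rose more than 6-fold. Transcripts of the classical fibronectin receptor, Itga5 and Itgb1, and those of Itgav and Itga9 differed by at most 0.15 on the log2 scale and were not called. In all, 1 of the 10 genes was higher and 3 were lower at an adjusted p under 0.05. Of all 17636 genes tested 31.8% were called in this comparison (16.7% higher, 15.0% lower), so the count among the 10 genes is close to the background. Without overlap between libraries 2 were higher (31.8% of all genes) and 4 lower (29.9% of all genes). The median log2 fold change was -0.12 over the 10 genes and 0.03 over all genes.

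Fn1 (ENSMUSG00000026193.15, chromosome 1, 71585520 to 71653200 in GRCm38, minus strand, protein coding) had 743, 808 and 859 CPM in the Tcf21 P30 libraries, against 3508 and 3423 CPM in the Tcf21 P7 libraries. The groups lay far apart, and the libraries within each differed little. The mean was 803 ± 58.2 CPM (SD, n = 3) in Tcf21 P30 and 3465 ± 60.0 CPM (SD, n = 2) in Tcf21 P7, a log2 fold change of -2.11 ± 0.11 (SE, adjusted p = 2.7e-05), or 4.31-fold lower. Of all genes tested, 2.19% had a lower fold change. Fn1 kept its call under each of the 16 alternatives tried, with values of -2.16 to -2.05. The exons of Fn1 overlap those of Apol7d, annotated as an antisense gene on the plus strand, which held 556 to 2794 counts per library. No source used here gives the strand setting of the counting, and without it reads from the shared stretch, at most 424 of the 11685 exon bases of Fn1, cannot be told apart. Fn1 itself held 11771 to 61720 counts per library. The inclusion of the spliced segments of fibronectin could not be read from counts per gene.

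Itga11 (ENSMUSG00000032243.8, chromosome 9, 62677826 to 62783982, plus strand, protein coding), the fibrillar collagen receptor subunit known from fibroblasts, had 178, 248 and 227 CPM in Tcf21 P30, against 33.1 and 33.6 CPM in Tcf21 P7. Every P30 library stood at more than 5 times either P7 library, and replicate 1, an endothelial-rich library, was the lowest of the 3. The log2 fold change was 2.70 ± 0.18 (SE, adjusted p = 6.1e-05), or 6.51-fold higher, and 96.96% of genes had a lower one. The call held under all 16 alternatives, at 2.59 to 2.84.

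Itga8 (ENSMUSG00000026768.10, chromosome 2, 12106632 to 12301922, minus strand, protein coding), the RGD-binding subunit, was measured at 70.2, 61.8 and 57.4 CPM in Tcf21 P30, against 138 and 139 CPM in Tcf21 P7. The P30 libraries were lower without overlap, by 2.19-fold (log2 fold change -1.13 ± 0.10, SE, adjusted p = 0.00017), and all 16 alternatives kept the call. Its exons overlap the antisense gene E030013I19Rik, over at most 385 bases, and that gene held 102 to 305 counts per library.

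Itgb3 (ENSMUSG00000020689.4, chromosome 11, 104608000 to 104670476, plus strand, protein coding), a partner of Itgav and, in platelets, of Itga2b, was measured at 40.0, 20.7 and 45.1 CPM in Tcf21 P30, against 124 and 132 CPM in Tcf21 P7. The groups did not overlap, although the P30 libraries differed among themselves by more than 2-fold. The log2 fold change was -1.86 ± 0.39 (SE, adjusted p = 0.018), or 3.62-fold lower. The call was lost without Tcf21 P7 replicate 1 (-1.90, adjusted p = 0.084) or replicate 2 (-1.82, adjusted p = 0.093), over a range of 3.3e-39 to 0.093 in the 16 alternatives. The summed platelet markers, like Itgb3, were highest in Tcf21 P7, but their order among the other libraries was not that of Itgb3. Their sum was 42.9, 21.6 and 29.4 CPM in Tcf21 P30 and 88.3 and 85.9 CPM in Tcf21 P7, most of it from Pf4, which is also known from macrophages. Of the 6 platelet markers 3 passed the filter on low counts, Pf4 was lower (-1.63 ± 0.31, SE, adjusted p = 0.011), Ppbp was not called (-0.94 ± 0.75, SE, adjusted p = 0.37), and the platelet receptor gene Gp1bb was at 0 in all 7 libraries. Itga2b, the platelet partner of Itgb3, stood at 5.30, 3.61 and 3.35 CPM in Tcf21 P30 and 5.06 and 4.15 CPM in Tcf21 P7, and was not called (-0.17 ± 0.28, SE, adjusted p = 0.66). The part of platelets or macrophages in the level of Itgb3 was not tested.

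Itgb5 (ENSMUSG00000022817.15, chromosome 16, 33829665 to 33949338, plus strand, protein coding), the other main partner of Itgav, was measured at 695, 971 and 827 CPM in Tcf21 P30, against 644 and 659 CPM in Tcf21 P7. The P30 libraries were all above those of P7, by a log2 fold change of 0.35 ± 0.16 (SE, adjusted p = 0.12) that missed the threshold. Without Tcf21 P30 replicate 1, the lowest of its group, the value was 0.47 with an adjusted p of 0.019, over a range of 0.0012 to 0.39 in the 16 alternatives.

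Itgb1 (ENSMUSG00000025809.15, chromosome 8, 128685654 to 128733200, plus strand, protein coding), the shared partner of 5 of the 6 alpha subunits and of Itgav as well, was measured at 1068, 1051 and 1013 CPM in Tcf21 P30 and 1092 and 1138 CPM in Tcf21 P7. Its log2 fold change of -0.09 ± 0.09 missed the threshold (SE, adjusted p = 0.47). Itga5 (ENSMUSG00000000555.8, chromosome 15, 103344286 to 103366763, minus strand, protein coding) stood at 238 to 266 CPM in Tcf21 P30 and at 265 and 280 CPM in Tcf21 P7 (-0.14 ± 0.09, SE, adjusted p = 0.26). Itgav (ENSMUSG00000027087.11, chromosome 2, 83724397 to 83806916, plus strand, protein coding) stood at 233 to 273 CPM in Tcf21 P30 and at 253 and 254 CPM in Tcf21 P7 (-0.02 ± 0.10, SE, adjusted p = 0.88). Itga9 (ENSMUSG00000039115.13, chromosome 9, 118606690 to 118901003, plus strand, protein coding) stood at 146 to 172 CPM in Tcf21 P30 and at 142 and 146 CPM in Tcf21 P7 (0.15 ± 0.09, SE, adjusted p = 0.24). For Itga5, Itgav and Itga9 the ranges of the 2 groups overlapped. Over the 16 alternatives the value lay between -0.20 and -0.10 for Itga5 and between -0.09 and 0.03 for Itgav, with no call. Itga9 lay between 0.10 and 0.22 and was called in 1, without both endothelial-rich libraries (0.22, adjusted p = 0.041; 0.041 to 0.59 over the alternatives).

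Itga1 (ENSMUSG00000042284.10, chromosome 13, 114953096 to 115101964, minus strand, protein coding), a collagen receptor subunit that is also known from smooth muscle, pericytes and capillary endothelium, was the most uneven of the 10 genes at P30. It was measured at 194, 70.6 and 86.3 CPM in Tcf21 P30 and at 140 and 143 CPM in Tcf21 P7. Replicate 1 of P30 lay above both P7 libraries and the other P30 libraries below them, and the difference was not called (-0.28 ± 0.46, SE, adjusted p = 0.68). Without Tcf21 P30 replicate 1 it was -0.84 with an adjusted p of 0.0028, and over the 16 alternatives the adjusted p was 3.0e-05 to 0.96. The level of Itga1 moved with the summed markers of mural cells, but not with each marker. Of the 10 markers, 8 were higher and 0 lower in Postn P7 than in Tcf21 P7 without overlap (median log2 fold change 0.70). Over all genes 31.4% were higher in this way. Between the ages 1 marker was higher and 1 lower without overlap, against 31.8% and 29.9% of all genes. The markers that departed most from Itga1 include the 2 named next. Pdgfrb was lowest in both Tcf21 P7 libraries (409 and 431 CPM), where all others held at least 564 CPM. Myh11 peaked at 228 CPM in a Tcf21 P30 library, while Postn P7 reached at most 85.6 CPM. The 10 pericyte and smooth muscle markers had sums of 2721 and 1985 CPM in Postn P7 cells, 2093, 978 and 1042 CPM in Tcf21 P30 cells and 1469 and 1445 CPM in Tcf21 P7, and none was at 0 in any library. Endothelial markers ordered the libraries otherwise, with 3131, 868 and 988 CPM in Tcf21 P30 and 1383 and 917 CPM in Postn P7. The part of these cells in the level of Itga1 was not tested. The exons of Itga1 overlap those of Gm49395 (0 to 5 counts per library), and those of Itgav overlap Gm13684 (4 to 29 counts).

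**Figure D2:**
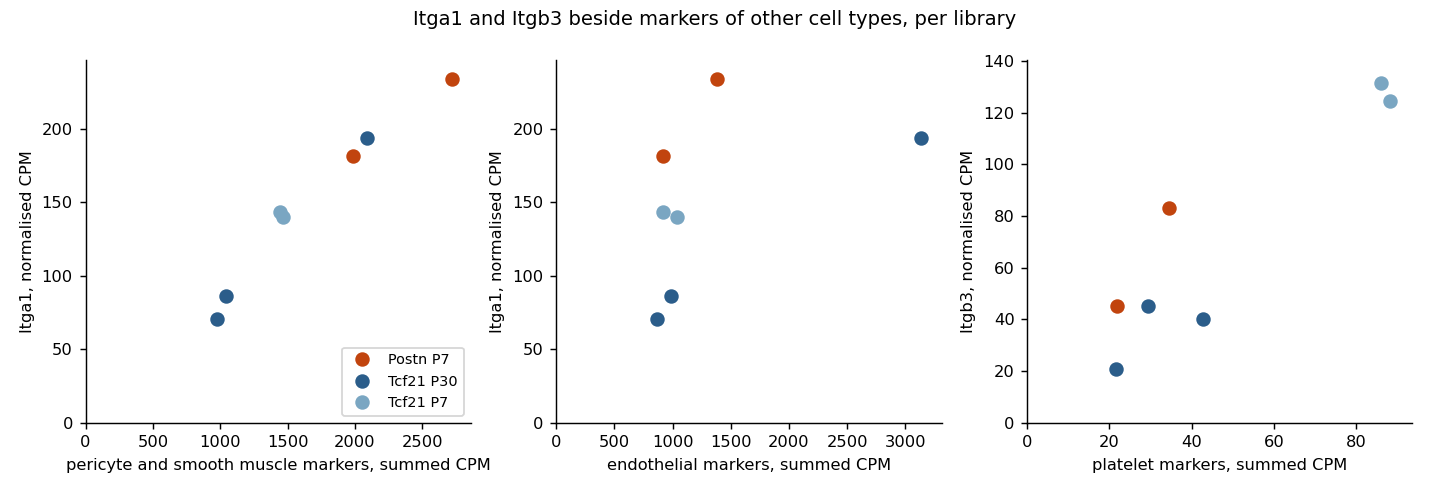
Normalised CPM of Itga1 (left and middle, vertical axes) or Itgb3 (right) against the summed CPM of markers of pericytes and smooth muscle, of endothelium and of platelets; each point is 1 of the 7 libraries, coloured by group. The Itga1 level ran from 70.6 CPM at the lowest pericyte and smooth muscle sum (978 CPM) to 234 CPM at the highest (2721 CPM), and both Tcf21 P7 libraries had the highest Itgb3 levels and platelet sums. Most of the platelet sum came from Pf4, which is also known from macrophages.

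Postn-traced and Tcf21-traced cells at day 7 were compared at 1 age, and these traced populations are called lineages here. Between them none of the 10 genes was called at an adjusted p under 0.05 with edgeR. Of all genes tested 12.0% were called (6.52% higher, 5.49% lower). Before adjustment Fn1 and Itgb5 had a p under 0.05. Of the 10 genes, DESeq2 called 2, limma-voom 0 and edgeR with only the groups compared 2. The reported fit shares its estimate of the spread over all 7 libraries. A Tcf21 P30 library can therefore alter the p-values between the P7 groups without being in either. The largest differences were those of Itgb3, Itga1, Itgb5 and Fn1, at 0.99 or less on the log2 scale. Of the 10 genes, 3 were higher and 5 lower in Postn P7 without overlap between the libraries, while such a separation was seen in 64.0% of all genes tested (31.4% higher, 32.5% lower).

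Fn1 had 2708 and 2828 CPM in the Postn P7 libraries, against 3508 and 3423 CPM in the Tcf21 P7 libraries. Both Postn P7 libraries were lower, by a log2 fold change of -0.32 ± 0.12 (SE, adjusted p = 0.11), which was 1.25-fold lower. The adjusted p was 0.041 with DESeq2 and 0.041 to 0.45 over the 16 alternatives. Itgb5 had 425 and 525 CPM in the Postn P7 libraries, against 644 and 659 CPM in the Tcf21 P7 libraries (-0.46 ± 0.17, SE, adjusted p = 0.11). Without Tcf21 P30 replicate 1 the adjusted p of Itgb5 was 0.041, over a range of 0.016 to 0.41 in the alternatives. Itgb3 had 83.3 and 45.3 CPM in the Postn P7 libraries, against 124 and 132 CPM in the Tcf21 P7 libraries. Its libraries did not overlap, but the Postn P7 pair lay far apart, and the difference of -0.99 ± 0.43 was not called (SE, adjusted p = 0.19; 2.6e-08 to 0.48 over the alternatives). The platelet markers had sums of 34.5 and 21.9 CPM in the Postn P7 libraries and 88.3 and 85.9 CPM in the Tcf21 P7 libraries, most of it from Pf4. Macrophage markers summed to 240 and 291 CPM in Postn P7 and 907 and 919 CPM in Tcf21 P7.

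Itga1 had 234 and 181 CPM in the Postn P7 libraries, against 140 and 143 CPM in the Tcf21 P7 libraries, and the difference of 0.55 ± 0.50 was not called (SE, adjusted p = 0.52). Without Tcf21 P30 replicate 1 the same difference of 0.57 had an adjusted p of 0.028, and the range over the alternatives was 0.0015 to 0.81. Itga8 had 165 and 159 CPM in the Postn P7 libraries, against 138 and 139 CPM in the Tcf21 P7 libraries (0.22 ± 0.11, SE, adjusted p = 0.21). Itgb1 had 1226 and 1312 CPM in the Postn P7 libraries, against 1092 and 1138 CPM in the Tcf21 P7 libraries (0.19 ± 0.10, SE, adjusted p = 0.26). Both genes were higher in each Postn P7 library by less than the test could call. Itga11 had 24.8 and 32.5 CPM in the Postn P7 libraries, against 33.1 and 33.6 CPM in the Tcf21 P7 libraries (-0.22 ± 0.18, SE, adjusted p = 0.46). Itga5 differed by -0.19 ± 0.10, Itga9 by 0.05 ± 0.10 and Itgav by 0.03 ± 0.11 (SE), none of them called.

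Postn P7 and Tcf21 P30 differ in both lineage and age, and their comparison completes the order of the levels. Fn1 (1.78 ± 0.10, SE, adjusted p = 3.3e-05) and Itga8 (1.36 ± 0.10, SE, adjusted p = 6.9e-05) were higher in Postn P7. Itga11 (-2.92 ± 0.18, SE, adjusted p = 4.1e-05) and Itgb5 (-0.81 ± 0.16, SE, adjusted p = 0.0078) were lower. These were 4 of 10 genes, where 24.2% of all genes tested were called (11.7% higher, 12.5% lower). Libraries did not overlap for 6 of the 10, 4 higher and 2 lower, and for 50.6% of all genes (24.7% higher, 25.9% lower). The call of Itgb5 was lost without Postn P7 replicate 1 (-0.66, adjusted p = 0.057; 1.4e-08 to 0.057 over the alternatives). Itgb1 was 0.28 ± 0.09 higher in Postn P7 and missed the threshold (SE, adjusted p = 0.060), while 5 of the 16 alternatives called it. Itga1 (0.83 ± 0.45, SE, adjusted p = 0.26) and Itgb3 (0.87 ± 0.39, SE, adjusted p = 0.18) were not called. Without Tcf21 P30 replicate 1 the value of Itga1 was 1.41 with an adjusted p of 0.00021, over a range of 3.9e-10 to 0.58. Itga5 (-0.06 ± 0.09), Itga9 (-0.10 ± 0.09) and Itgav (0.05 ± 0.10, SE) overlapped between the groups. Fn1 levels thus ran from Tcf21 P30 through Postn P7 to Tcf21 P7, and the upper 2 did not differ beyond the test. Itga8 ran from Tcf21 P30 through Tcf21 P7 to Postn P7, again with the upper 2 not told apart. Itga11 was highest in Tcf21 P30 and not told apart between the P7 groups, and Itgb5 ran from Postn P7 through Tcf21 P7 to Tcf21 P30 with only the ends told apart. The comparisons share libraries in pairs and are not independent of each other.

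**Figure D3:**
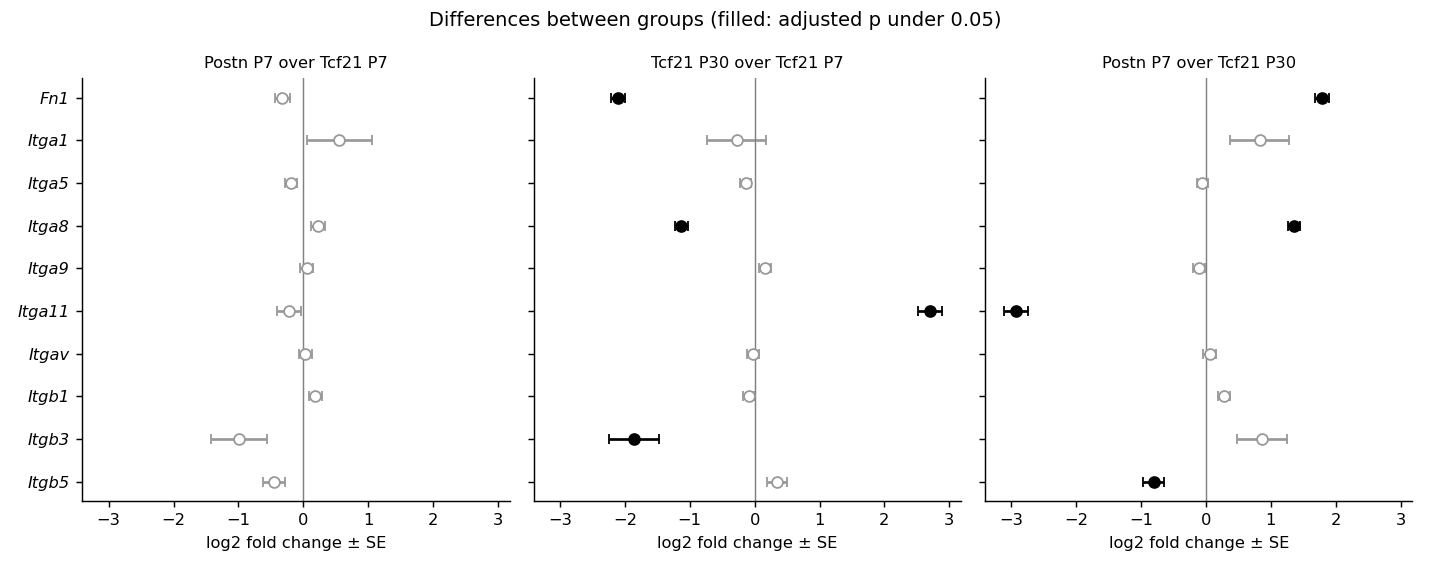
Log2 fold change ± SE of each gene, in lines down the page, in the comparisons of Postn P7 with Tcf21 P7, of Tcf21 P30 with Tcf21 P7 and of Postn P7 with Tcf21 P30; positive values are higher in the group named first, and filled points have an adjusted p under 0.05. No point is filled in the comparison of lineages at day 7, against 4 filled points in each of the others.

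Levels of different genes were compared per length, as CPM per kilobase of merged exon sequence. Among the 18 alpha subunit genes of the mouse table, Itga5 had the highest level in every group, with 48.3 ± 0.681 CPM per kilobase in Postn P7, 50.2 ± 3.13 in Tcf21 P30 and 55.2 ± 2.05 in Tcf21 P7 (SD, n = 2, 3 and 2). Itga11 was the second alpha subunit at P30, with 42.4 ± 7.02 CPM per kilobase, and the eighth in both P7 groups, with 5.59 ± 1.07 in Postn P7 and 6.50 ± 0.0620 in Tcf21 P7. Its share of all alpha subunit transcripts was 24.7% ± 4.98 in Tcf21 P30, 3.36% ± 0.742 in Postn P7 and 4.20% ± 0.136 in Tcf21 P7. The share of Itga8 was 4.95% ± 0.284 in Tcf21 P30, against 13.1% ± 0.0650 in Postn P7 and 12.1% ± 0.329 in Tcf21 P7. The per-length ratio of Itga11 to Itga8 was 3.63, 5.75 and 5.68 in the Tcf21 P30 libraries, 0.216 and 0.294 in Postn P7 and 0.345 and 0.347 in Tcf21 P7. Itga11 thus exceeded Itga8 in every P30 library and in no P7 library, while it stayed below Itga5 in every library. Between the collagen receptor subunits, the ratio of Itga11 to Itga1 was 3.32 to 12.7 in Tcf21 P30, 0.385 and 0.650 in Postn P7 and 0.858 and 0.851 in Tcf21 P7.

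Among the 8 beta subunit genes, Itgb1, Itgb5 and Itgb3 took the top 3 places in this order in every group and together made up 98.1% to 98.8% of the per-length total. Itgb1 had 311 ± 14.9 CPM per kilobase in Postn P7, 256 ± 6.89 in Tcf21 P30 and 273 ± 8.03 in Tcf21 P7. Itgb5 held 28.8% ± 2.31 of beta subunit transcripts in Postn P7, 46.3% ± 4.53 in Tcf21 P30 and 37.6% ± 0.342 in Tcf21 P7, and at P30 its level came close to that of Itgb1, exceeding it in replicate 2. Among the partners of Itgav, the ratio of Itgb5 to Itgb3 was 28.8, 77.7 and 30.4 in Tcf21 P30, 8.48 and 19.2 in Postn P7 and 8.60 and 8.32 in Tcf21 P7. The per-length ratio of fibronectin to its receptor subunit Itga5 was 1.32, 1.28 and 1.51 in Tcf21 P30, 4.85 and 4.96 in Postn P7 and 5.29 and 5.45 in Tcf21 P7. These shares and ratios are descriptions of the same counts and carry no test of their own. With the longest coding transcript as the length, 3 of the 27 gene-by-group ranks changed, and the share of Itga11 in Tcf21 P30 was 20.4%. The ratio of Fn1 to Itga5 also depends on the length used. By that transcript the mean levels of Fn1 and Itga5 were 96.6 and 56.6 CPM per kilobase in Tcf21 P30. They were 333 and 54.4 in Postn P7 and 417 and 62.2 in Tcf21 P7.

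**Figure D4:**
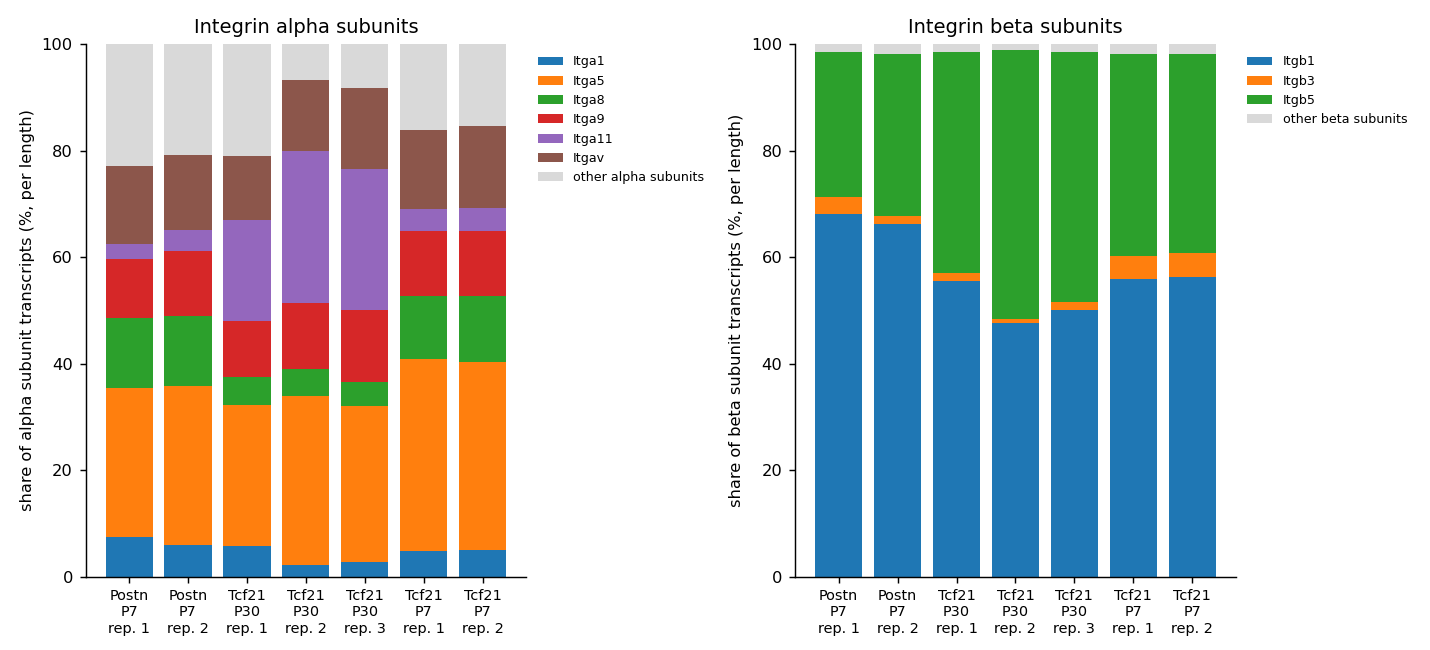
Share of all integrin alpha (left) or beta (right) subunit transcripts, in percent of the summed CPM per kilobase, taken by each subunit in each library (bars). The Itga11 segment covers 19.0% to 28.5% in the Tcf21 P30 libraries and at most 4.30% in the others.

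The 11 other integrin subunit genes included 1 call between the ages, a share below the 31.8% of all genes called, with a median of 0.45. It was Itgb8, which encodes a partner of Itgav that activates latent TGF-beta. Itgb8 had 28.7, 37.4 and 44.2 CPM in Tcf21 P30, against 20.6 and 22.3 CPM in Tcf21 P7 (0.78 ± 0.18, SE, adjusted p = 0.013). None of the 11 was called between the lineages with edgeR, DESeq2 or limma-voom, where 2 had an unadjusted p under 0.05 with edgeR and the median of the list was 0.53. At least 1 of the other alternatives did call some of them higher in Postn P7. The most expressed of them, the laminin receptor subunit Itga6, had 125 and 86.2 CPM in Postn P7 cells, 209, 30.4 and 46.0 CPM in Tcf21 P30 and 72.8 and 62.8 CPM in Tcf21 P7. Its highest levels were in the endothelial-rich libraries. Of the 6 leukocyte integrin genes 4 passed the filter, and Itgal (-1.82 ± 0.37, SE, adjusted p = 0.0094) and Itgb2 (-1.27 ± 0.30, SE, adjusted p = 0.016) were lower in Tcf21 P30, where 15.0% of all genes were lower. Neither was called between the lineages with edgeR, DESeq2 or limma-voom, where 1 of the 4 had an unadjusted p under 0.05 with edgeR. At least 1 other alternative called leukocyte subunits lower in Postn P7. All 10 macrophage markers were lower in Tcf21 P30 than in Tcf21 P7 without overlap, and 9 were called, and their part in these leukocyte subunits was not tested.

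Of 21 other matrix ligands of integrins 3 were higher and 7 lower in Tcf21 P30, and 4 were lower in Postn P7, both against Tcf21 P7. Over all genes 16.7% were higher and 15.0% lower with age, and 6.52% higher and 5.49% lower between the lineages. The ligands with the largest falls with age were Tnc (tenascin-C, -3.59 ± 0.27), Nov (the matricellular protein CCN3, -3.04 ± 0.12), Igfbp2 (an IGF binding protein with an RGD site, -2.79 ± 0.90) and Postn (-2.41 ± 0.13). Of these Igfbp2 lay near the floor, at a mean of 0.126 CPM in Tcf21 P30 and 0.887 CPM in Tcf21 P7. Its call was close to the threshold (edgeR adjusted p = 0.047). The 3 that rose were the matricellular proteins Ctgf (1.13 ± 0.09) and Cyr61 (0.80 ± 0.23) and the latent TGF-beta binding protein Ltbp1 (0.52 ± 0.13), named after their values were seen. The 4 lower in Postn P7 were Svep1, a partner of Itga9 (-0.68 ± 0.15), the thrombospondin Thbs1 (-0.51 ± 0.13), Emilin1, likewise a ligand of Itga9 (-0.50 ± 0.13), and Nov (-0.49 ± 0.12). Values are log2 fold changes ± SE. The medians of the list were -0.18 with age and -0.08 between lineages, against 0.03 and 0.0021 over all genes. The 4 calls between lineages became 0 without any 1 of the P7 libraries, 2 without Tcf21 P30 replicate 2, 1 without replicate 3 and 8 without replicate 1.

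Of 13 genes for fibronectin assembly partners and other fibronectin receptors 6 were higher and 2 lower in Tcf21 P30, against 16.7% higher and 15.0% lower over all genes. The largest changes were those of Tgm2, a transglutaminase that crosslinks fibronectin (2.12 ± 0.20), the heparan sulfate receptor Sdc1 (-1.21 ± 0.09), the endocytic receptor Lrp1 (0.99 ± 0.15) and Fbln1, a fibronectin-binding fibulin (0.87 ± 0.18). The median of this list was 0.50, against 0.03 over all genes, while Fn1 itself fell. Between the lineages Dpp4, a surface peptidase that binds fibronectin, was the single call (-1.21 ± 0.19 in Postn P7), where 12.0% of all genes were called and the medians were -0.41 for the list and 0.0021 for all genes. Of 30 adaptors and kinases of integrin adhesions 29 were tested, and 6 were higher and 9 lower with age, with 31.8% of all genes called and a list median of -0.07. The largest changes were those of Fermt3, the kindlin of blood cells (-1.76 ± 0.20), Lims2 (PINCH2, 0.97 ± 0.27), the talin-binding Kank2 (-0.82 ± 0.16) and the tyrosine kinase Src (-0.81 ± 0.17). Between the lineages 2 adaptors were higher and 5 lower, with 12.0% of all genes called and a list median of -0.09. The largest differences there were those of Fermt3 (-1.21 ± 0.22), Kank2 (-0.78 ± 0.17), the LIM protein Lpp (0.61 ± 0.10) and the focal adhesion scaffold Pxn (-0.56 ± 0.10). Fermt3 was lower in the same groups as the macrophage markers. The 7 adaptor calls between the lineages became 0 without either Tcf21 P7 library, 4 and 1 without Postn P7 replicates 1 and 2, and 12 and 3 without Tcf21 P30 replicates 1 and 3. With age, leaving out either Tcf21 P7 library left 5 ligands, 3 assembly partners or receptors, 4 adaptors and none of the other or leukocyte integrin subunits called, and leaving out Tcf21 P30 replicate 3 left 5 ligands, 4 assembly partners or receptors and 1 leukocyte subunit. The call of Dpp4 was lost without either Tcf21 P7 library, and without Tcf21 P30 replicate 1 there were 3 calls among the other integrin subunits in each comparison with Tcf21 P7.

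The genes whose levels were most like those of Fn1 over the 7 libraries were named by Pearson correlation of log2 CPM among 9945 genes with at least 10 CPM on average. They were Nov (0.9997), Apol7d (0.9995), Fbn2, a fibrillin of developing microfibrils (0.9990), Thsd4, a microfibril-associated protein (0.9990), and Cthrc1, a secreted protein of activated fibroblasts (0.9989). The 7 libraries fall into 2 ages, so a gene that differs between the ages as Fn1 does has a high coefficient, and Apol7d shares exon sequence with Fn1. Nov had 543 CPM in Postn P7, 92.6 CPM in Tcf21 P30 and 764 CPM in Tcf21 P7, the same order of groups as Fn1. Cthrc1 had 80.7 CPM in Postn P7, 2.71 CPM in Tcf21 P30 and 123 CPM in Tcf21 P7. Within the 10 genes, the correlation with Fn1 was 0.95 for Itga8, 0.82 for Itgb3 and 0.67 for Itgb1, and -0.97 for Itga11, -0.69 for Itgb5 and -0.63 for Itga9.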

How the data were processed

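RNA was sequenced from sorted reporter-positive cells of 7 samples in 3 groups. The authors deposited raw counts per gene symbol, without normalization, with each replicate in its own column. Per the submitters' processing notes the aligner was STAR and the build GRCm38. The sources used here do not give versions, the counting program, the annotation release or the strand setting.

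edgeR 4.0.16 in R 4.3.3 was run on the counts. Its filterByExpr kept 17636 of 54735 genes (21563 had no count), TMM factors scaled the libraries, and 1 robust quasi-likelihood fit held all 7 libraries with the 3 group means as its terms. Benjamini-Hochberg adjustment ran over every gene tested, and genes under 0.05 are called. Each SE is the size of the log2 fold change over the root of its F statistic. Per-length levels used merged exons of GENCODE M21 (GRCm38), and positions and biotypes came from the same annotation. The code was tested on simulated counts. Alternatives were other scalings, no filter, DESeq2 1.42.0, limma-voom 3.58.1, only the groups compared, a replicate block, and libraries left out. The genes, lists and alternatives were chosen with earlier results of these data known. The length by the longest coding transcript was tried after seeing the data. Genes named were the 10 members, up to 4 of the largest called changes per list and comparison with Tcf21 P7 (or the most expressed member where none was called), and the 5 genes most like Fn1. Other names are stated as such. Nothing in the labels says that replicates came from separate animals. The p-values therefore weigh differences between groups against a spread between these samples that may be technical. Replicates differed by more than sampling noise, with chi-squared over degrees of freedom of 3.50 to 40.0. The labels tie replicate numbers to no shared litter, day or batch, so libraries were not paired.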

Additional observations from a re-analysis of the deposited data

How the results depend on the processing

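Over the 10 genes, 16 alternatives and 3 comparisons, Fn1, Itga8 and Itga11 kept direction and call wherever they were called. The number of the 10 genes called between the lineages was 0 in the reported fit. It was 3 with no filter on low counts, 2 with DESeq2, 2 with only the groups compared, 2 without both endothelial-rich libraries and 0 to 2 when 1 library was left out. With age it was 4, 7 without both endothelial-rich libraries and 3 to 6 when 1 library was left out. Between Postn P7 and Tcf21 P30 it was 4, and 3 to 6 when 1 library was left out. Over all genes, 2118 were called between the lineages (1149 higher, 969 lower). That became 3442 with no filter, 3750 without both endothelial-rich libraries and 111 to 3250 when 1 library was left out, lowest without Tcf21 P7 replicate 2. With library size alone, which shifted the median by 0.11 (log2), 1741 were higher and 472 lower, and with upper-quartile factors 1187 and 647. With age 5604 genes were called, and 2418 to 6063 when 1 library was left out. Between Postn P7 and Tcf21 P30 4276 were called, 2070 higher and 2206 lower (2802 and 1725 with library size alone, a shift of 0.11), and 2810 to 5072 when 1 library was left out. Leaving out a library of a pair leaves a lone one, taken to vary as the other groups do.

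Directions turned for differences near 0, none of them called. Itga5 between Postn P7 and Tcf21 P30 was 0.050 with library size alone and 0.022 without Tcf21 P30 replicate 2. Itga9 in that comparison was 0.0045 with library size alone. Itgav was -0.029 (over Tcf21 P7) and -0.0027 (over Tcf21 P30) without Postn P7 replicate 1, and 0.030 with age without Tcf21 P30 replicate 1. Without both endothelial-rich libraries Itgav was -0.022 between the lineages, 0.028 with age and -0.050 between Postn P7 and Tcf21 P30. The cause was not tested. Leaving out 1 library at a time gave Itgav -0.029 to 0.076 between the lineages, -0.082 to 0.030 with age and -0.0027 to 0.14 between Postn P7 and Tcf21 P30, where Itga5 lay at -0.079 to 0.022. With a replicate block 1556, 4553 and 3348 genes were called in Postn P7 over Tcf21 P7, Tcf21 P30 over Tcf21 P7 and Postn P7 over Tcf21 P30, and 0, 4 and 4 of the 10. Deviations of equally numbered libraries correlated by 0.04 to 0.31, and those of unequally numbered ones by -0.31 to 0.05. In a group of 2 libraries the deviations are mirror images, so these values repeat each other and cannot decide whether numbers share a batch. Fn1 rests on 11771 to 61720 counts per library and Itga2b on 57 to 98.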
